A study of Caenorhabditis elegans with 2 samples.

Results

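The mitochondrial ribosomal protein genes of *Caenorhabditis elegans* were examined in chromatin immunoprecipitation and sequencing (ChIP-seq) peaks of VAB-7. The genes were the protein-coding genes of the Ensembl WBcel235 annotation whose symbol begins with mrpl- (large subunit) or mrps- (small subunit). They numbered 70 of 19973 protein-coding genes on the 6 nuclear chromosomes, 41 of the large and 29 of the small subunit, and are called the set below. A gene was called bound when the summit of a peak in the authors' series thresholded list stood at most 1000 bp away from the gene's annotated 5′ end.

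The samples were 2 biological replicates of 1 group: whole L4 larvae, 47 hours old, of strain RW12267, grown from synchronized starved L1 larvae. Their genotype was st12267[vab-7::TY1::EGFP::3xFLAG] III, a CRISPR insertion at the native vab-7 gene, and the tagged protein was pulled down with its chromatin by anti-GFP antibody. Each peak therefore sums over all cells of the animal that hold the tagged protein, and the cell types behind it cannot be resolved. Whether a peak depends on VAB-7 was not tested, since the control experiment that the labels name was not analysed here. There is no second condition, so no fold change or test between groups was possible, and every comparison below is of shares and peak signals in 1 group.

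VAB-7 is a homeodomain transcription factor related to Even-skipped of the fly, with known roles in patterning the posterior body and in specifying motor neurons. The mitochondrial ribosome translates the few respiratory chain and ATP synthase proteins that are still encoded in mitochondrial DNA. Its own proteins are encoded in the nucleus, made on cytosolic ribosomes and imported. Many are relatives of bacterial ribosomal proteins, and others occur in mitochondria only. In *C. elegans*, lowering the level of the small-subunit protein MRPS-5 is known to induce the mitochondrial unfolded protein response and to lengthen life. Many nematode genes are transcribed together in operons and trans-spliced, and a promoter may therefore lie far from a gene's annotated start.

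Binding calls rest on the distance from summit to 5′ end and not on sequence. The summit sequences of mrpl-15 and mrpl-23, the bound genes with the strongest peaks, are not shown. The sequences at the summits of the other 4 bound genes, and of mrpl-55, which was bound in the authors' conservative list only, are shown. Each is 101 bases of the RefSeq genome WBcel235 (ce11), read 5′ to 3′ on the strand of the gene, with the 11 bases centred on the summit in capitals. They lie at chrII:156076-156176 on the minus strand for mrpl-28, chrIII:8449259-8449359 on the plus strand for mrpl-32 and chrV:12728429-12728529 on the plus strand for mrpl-49. The other two lie at chrIV:443840-443940 on the plus strand for mrpl-55 and chrII:10242341-10242441 on the minus strand for mrps-14.
mrpl-28: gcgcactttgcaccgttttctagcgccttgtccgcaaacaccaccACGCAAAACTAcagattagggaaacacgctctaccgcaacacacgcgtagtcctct
mrpl-32: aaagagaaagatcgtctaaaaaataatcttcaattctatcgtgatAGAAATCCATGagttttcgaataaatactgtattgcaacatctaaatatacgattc
mrpl-49: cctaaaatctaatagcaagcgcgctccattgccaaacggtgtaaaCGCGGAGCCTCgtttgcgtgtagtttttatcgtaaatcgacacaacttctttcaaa
mrpl-55: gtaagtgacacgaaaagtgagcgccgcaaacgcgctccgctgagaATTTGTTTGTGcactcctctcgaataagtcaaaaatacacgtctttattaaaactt
mrps-14: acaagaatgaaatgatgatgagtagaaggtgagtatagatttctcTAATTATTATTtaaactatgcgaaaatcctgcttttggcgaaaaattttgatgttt
The GC content of these windows was 53.5% for mrpl-28, 27.7% for mrpl-32, 43.6% for mrpl-49, 42.6% for mrpl-55 and 28.7% for mrps-14. The window of mrps-14 holds TAATTA, a core recognised by many homeodomain proteins, and the word falls within its central capitals. The window of mrpl-49 holds GCGCGC.

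In the series list, 6 of the 70 mitochondrial ribosomal protein genes were bound, a share of 8.57% (exact 95% interval 3.21 to 17.7). Of the 19903 other protein-coding genes, 1093 were bound, or 5.49% (5.18 to 5.82). The interval of the mitochondrial ribosomal genes thus holds the share of the other genes, and no excess of bound genes can be told from the background. The intervals cover the sampling of genes only, since the read depth behind the peaks is unknown. The bound genes were mrpl-15, mrpl-23, mrpl-28, mrpl-32, mrpl-49 and mrps-14. In the large subunit 5 of 41 genes were bound (12.2%, interval 4.08 to 26.2), and in the small subunit 1 of 29 (3.45%, interval 0.0873 to 17.8), so the intervals of the subunits overlap widely.

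Peak signal was reported by the authors' peak caller with unstated scaling, and it is compared here only within a list. The strongest peak at a bound gene of the set had signals of 66.5 to 206, with a median of 92.6. The median was 105 over all 1815 peaks of the series list and also 105 over the 889 peaks near the 5′ end of a gene outside the set. By signal the 6 peaks ranked from 242 to 1707 of 1815. Those at mrpl-23 (206) and mrpl-15 (137, rank 577) were above the median of the list, and the others were below it.

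The strongest was at mrpl-23, whose product is a relative of the bacterial protein L23 that lines the exit of the polypeptide tunnel. This peak (chrI:6212802-6212900, 99 bp wide) had a signal of 206, and its summit lay at −988 bp from the 5′ end, where negative positions are upstream. The summit stood in an intron of fars-1, which encodes a phenylalanyl-tRNA synthetase subunit, at −49 bp from the snoRNA gene T08B2.13. It was thus just inside the 1000 bp limit and far closer to the snoRNA gene than to mrpl-23. The ranked list of replicate 1 gave it a signal of 112 (rank 277 of 69586 peaks) and that of replicate 2 a signal of 87.8 (rank 332 of 48662). It was the only peak of the 6 that overlapped a thresholded peak of both replicates.

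At mrpl-15, a large-subunit gene with a bacterial counterpart, the peak (chrI:1435491-1435794) had a signal of 137 and a summit at −636 bp in intergenic sequence. The ranked signals were 54.7 in replicate 1 (rank 1350) and 88.7 in replicate 2 (rank 311). The peak passed the threshold of replicate 2 only. No other protein-coding gene had its 5′ end within 1000 bp of the summit.

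The gene mrpl-32 also encodes a large-subunit protein, whose yeast relative is known to be processed by the mitochondrial m-AAA protease. The summit of its peak (chrIII:8449157-8449460, signal 98.1) lay at −448 bp, in the 3′ untranslated region of rpn-3, a gene of the proteasome regulatory particle. The ranked signals were 69 in replicate 1 (rank 785) and 30.8 in replicate 2 (rank 2589), and only the thresholded list of replicate 1 held the peak. The replicate that passed thus differed between mrpl-15 and mrpl-32.

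The remaining 3 peaks overlapped no thresholded peak of either replicate. Genes bound only by such peaks were 3 of 70 in the set (4.29%, interval 0.893 to 12). They were 314 of the 19903 other protein-coding genes (1.58%), a share which that interval holds, and 21 of the 81 cytosolic ribosomal protein genes (25.9%). At mrps-14, which encodes a small-subunit protein, the peak (chrII:10242239-10242542, signal 87.1) had its summit at 99 bp inside the gene, in an intron of mrps-14 itself. It was the only summit of the 6 that lay downstream of the 5′ end, and its ranked signals were 57.3 in replicate 1 and 32.5 in replicate 2. At mrpl-28, a large-subunit gene with a bacterial counterpart, the peak (chrII:155974-156277, signal 78.9) had its summit at −117 bp, with ranked signals of 48.4 in replicate 1 and 32.9 in replicate 2. At mrpl-49, whose product has no bacterial relative, the peak (chrV:12728327-12728630, signal 66.5) had its summit at −152 bp. Its ranked peaks in the replicates had signals of 37.5 in replicate 1 and 38.2 in replicate 2. These 3 signals were the lowest of the 6, and mrpl-49, the lowest of all, was the only one of the 6 whose peak was missing from the conservative list.

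The peak of mrpl-49 was the only one of the 6 shared with the 5′ end of another protein-coding gene. That neighbour was rpl-28, which encodes a protein of the cytosolic large subunit and is transcribed away from mrpl-49 from a start 519 bp apart. The summit lay at −367 bp from rpl-28, so it was upstream of both genes and nearer to mrpl-49. Which of the genes the peak belongs to was not tested.

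**Figure D1:**
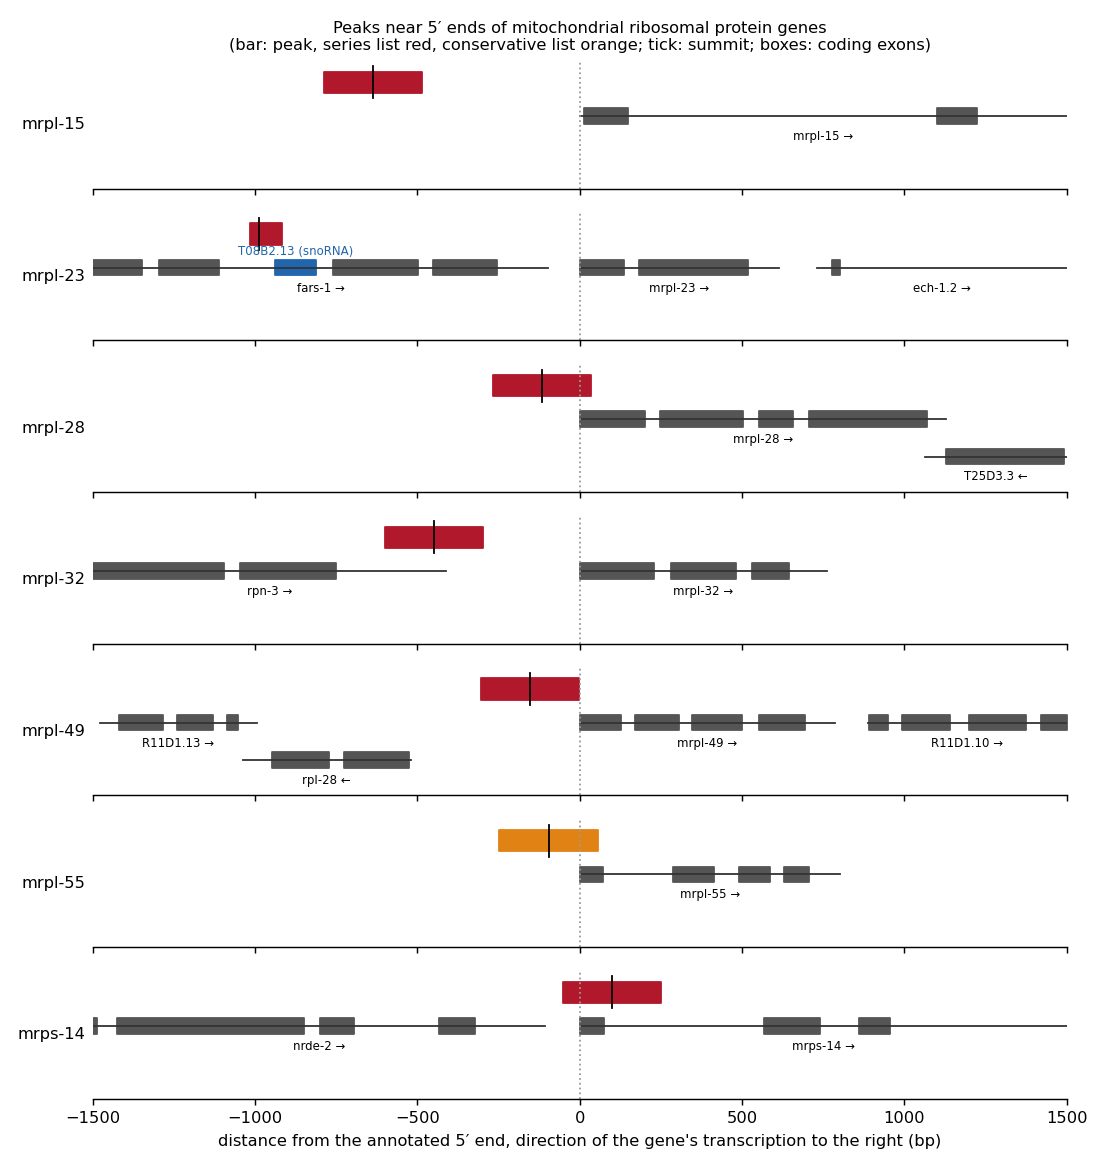
Peaks near the 5′ ends of the 7 genes bound in the series or the conservative list, with the distance from the annotated 5′ end in bp on the x axis and transcription of the named gene to the right. Bars are peaks (red for the series list, orange for the conservative list), ticks are summits and boxes are coding exons. The summits of mrpl-28, mrpl-49, mrpl-55 and mrps-14 lie within 152 bp of the 5′ end, and that of mrpl-23 lies at −988 bp beside a snoRNA gene.

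The map of these loci also shows mrpl-55, whose product is a mitochondria-specific large-subunit protein. The conservative list held a peak there (chrIV:443738-444041) with a signal of 96.2, rank 1071 of 1732, and a summit at −95 bp. Its score in the conservative list was 1000, so the lists differ at this position. In the authors' pooled ranked list the same position had a score of 753, below the lowest score of 830 in the series list; the score is the authors' rescaling of the irreproducible discovery rate (IDR), with 1000 at the top. Neither replicate passed its threshold there, and the ranked signals were 49.2 in replicate 1 and 50.3 in replicate 2. In the conservative list mrpl-55 took the place of mrpl-49, so again 6 of 70 genes were bound (8.57%), against 1019 of the other genes (5.12%).

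Calls from each replicate alone were fewer. The thresholded list of replicate 1 gave 2 of 70 genes (2.86%, interval 0.348 to 9.94), mrpl-23 and mrpl-32, against 3.11% of the other genes. That of replicate 2 also gave 2 of 70 (2.86%, same interval), mrpl-15 and mrpl-23, against 3.44% of the other genes. Series peaks that overlapped both replicates' lists bound only mrpl-23, 1 of 70 genes (1.43%), against 2.15% of the other genes. In each of these lists the share of the set was below the background share, with an interval that held it.

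Because the mrpl-23 summit stood beside a snoRNA gene, summits at tRNA, snoRNA or small nuclear RNA genes were also left out. Such a summit lay inside the gene or within 200 bp of its 5′ end, and other small RNA classes were not considered. Then 5 of 70 genes remained bound (7.14%), against 4.61% of the other genes. With both conditions together, no small RNA gene and both replicates, 0 of 70 genes were bound (upper limit 5.13%), against 1.53% of the other genes. No gene of the set thus had a peak held by both replicates and clear of small RNA genes of these classes. At this number of genes the difference from the background share cannot be resolved.

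**Figure D2:**
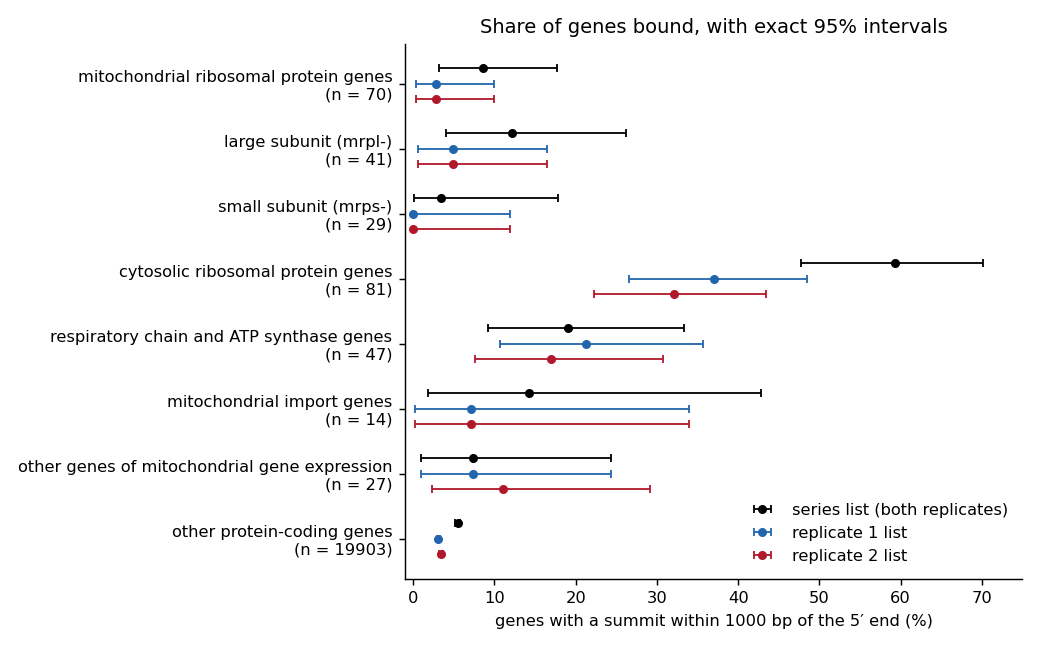
Share of genes that had a summit at most 1000 bp from the 5′ end (x axis, percent) for the mitochondrial ribosomal protein genes, their subunits, 4 comparison lists and the other protein-coding genes. Points are shares and bars exact 95% intervals, for the series list (black) and the thresholded lists of replicate 1 (blue) and replicate 2 (red). The mitochondrial ribosomal genes stand at 8.57% in the series list and the cytosolic ribosomal genes at 59.3%.

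Other gene groups tied to ribosomes and mitochondria were set beside the set. Of the 81 cytosolic ribosomal protein genes (rpl-, rps- and rla-), 48 were bound, or 59.3% (interval 47.8 to 70.1), so this interval and that of the 70 mitochondrial ribosomal genes do not overlap. The strongest were rpl-3 with a peak signal of 697, rpl-15 with 477 and rpl-20 with 443. The separation was present in each replicate: 2.86% of the mitochondrial and 37% of the cytosolic ribosomal genes were bound in replicate 1, and 2.86% of the mitochondrial and 32.1% of the cytosolic ones in replicate 2. Cytosolic ribosomal genes were thus bound far more often than the mitochondrial ones under the same rule, with intervals that stayed apart.

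Many products of the nuclear respiratory chain and ATP synthase genes assemble with the proteins the mitochondrial ribosome makes. These genes were listed by symbol, beginning with nuo-, nduf-, cox-, atp-, ucr-, cyc- or sdh followed by a to d. The genes isp-1, gas-1 and lpd-5 were added. Genes under other symbols, such as ndua-1 and nduv-2, were left out, so the list is partial. Of the 47 genes listed 9 were bound (19.1%, interval 9.15 to 33.3). The strongest were cox-5B (317) and cox-5A (304), which encode cytochrome c oxidase subunits, and atp-1 (201), which encodes an ATP synthase subunit. Of 14 import genes 2 were bound (14.3%, interval 1.78 to 42.8), ddp-1 (145), a chaperone of the intermembrane space, and tomm-20 (81.9), an import receptor of the outer membrane. Of 27 other genes of mitochondrial gene expression 2 were bound (7.41%, interval 0.91 to 24.3), mtcu-2 (545), which acts in mitochondrial tRNA modification, and ears-2 (333), a mitochondrial glutamyl-tRNA synthetase. The import genes were those with symbols beginning with tomm-, timm- or tin-, with ddp-1 added. The list of mitochondrial gene expression was chosen by symbol. It includes dap-3, a mitochondrial ribosomal protein gene whose symbol falls outside the rule of the set. In the series list the intervals of these 3 lists overlap that of the mitochondrial ribosomal genes. In replicate 1 the set stood at 2.86% (interval 0.348 to 9.94) and the respiratory chain and ATP synthase genes at 21.3% (10 of 47, interval 10.7 to 35.7), so these intervals do not overlap. In replicate 2 the set stood at 2.86% (0.348 to 9.94) and those genes at 17% (8 of 47, interval 7.65 to 30.8), with intervals that do overlap. The peaks at mtcu-2, ears-2, cox-5B and cox-5A were each stronger than any at a gene of the set.

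Most of the 64 unbound genes were not empty in the authors' full ranked list, which holds 88007 peaks and applies no IDR threshold. In it 62 of the 70 genes had a summit within 1000 bp (88.6%, interval 78.7 to 94.9), against 67.9% of the other genes. By subunit these were 37 of 41 large-subunit genes (90.2%) and 25 of 29 small-subunit genes (86.2%). The 8 genes without one were mrpl-1, mrpl-11, mrpl-20, mrpl-21, mrps-9, mrps-18B, mrps-26 and mrps-33. The same direction was seen in each replicate alone, with 81.4% of the set against 66.5% of the other genes in replicate 1 and 78.6% against 59.8% in replicate 2. The pooled interval of the set lies above the share of the other genes, but the comparison lists were also high. The cytosolic ribosomal and the import genes stood at 100% in the pooled list. The respiratory chain and ATP synthase genes stood at 89.4% and the list of mitochondrial gene expression at 85.2%. A ranked summit is thus the usual state of a protein-coding gene here, and its presence is not a binding call.

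The level of these ranked peaks was close to that of other genes. The strongest ranked summit of each gene of the set had a median signal of 39.3 (quartiles 27.6 and 47.9), against 35.7 (25.9 and 48) for the other genes and 75.1 for the cytosolic ribosomal genes. The median was 41.3 in the large and 33.4 in the small subunit. In replicate 1 the medians were 28.6 for the set and 25 for the other genes, and in replicate 2 they were 20.5 for the set and 17.3 for the other genes. The quartiles of the set and of the other genes overlap almost wholly.

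**Figure D3:**
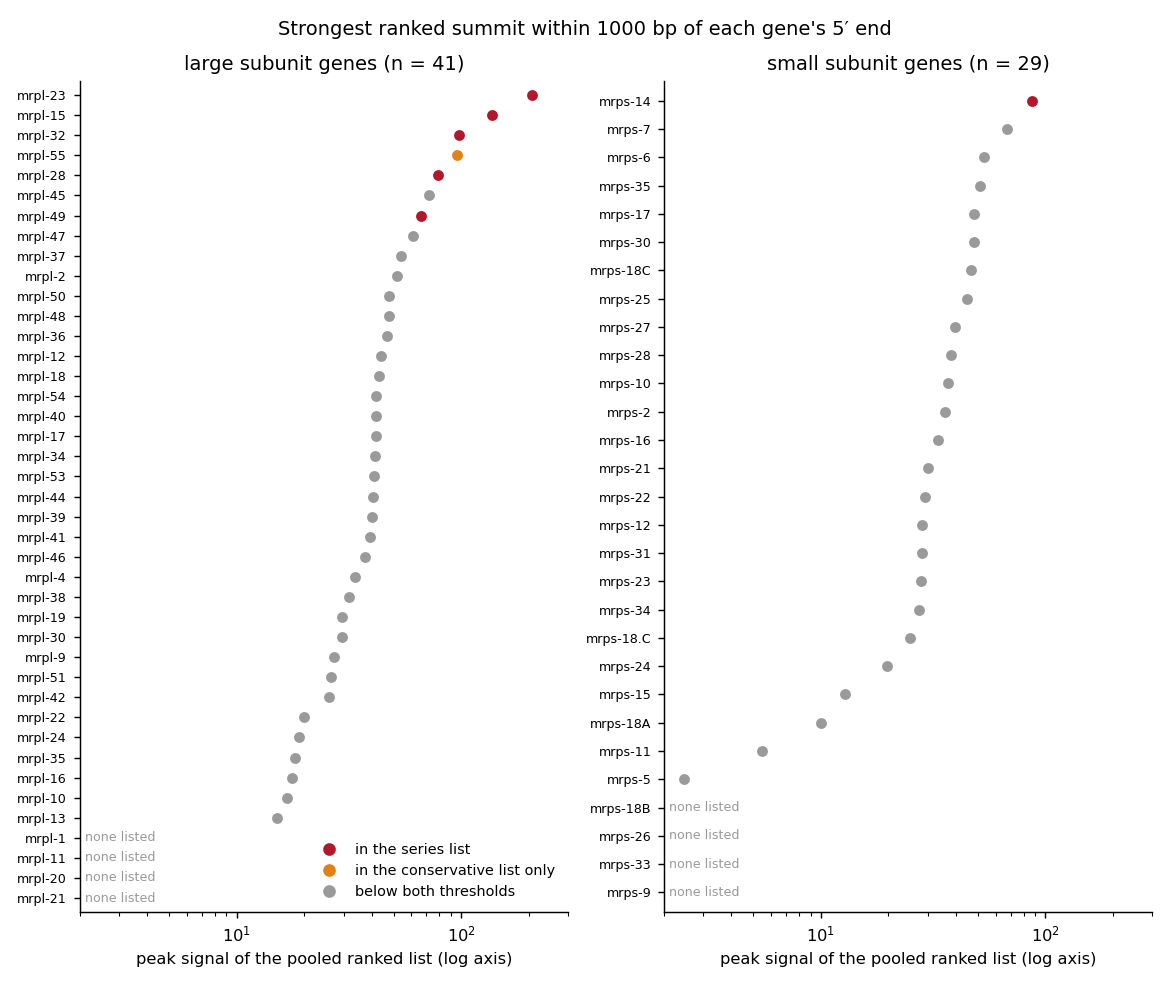
Signal of the strongest peak of the pooled ranked list whose summit is at most 1000 bp from the 5′ end, on a log axis, for each of the 41 large-subunit and 29 small-subunit genes. Red points are bound in the series list, the orange point (mrpl-55) in the conservative list only, and grey points are below both thresholds; 8 genes have no ranked summit. The bound genes lie at the top of both columns, with mrpl-45 between mrpl-28 and mrpl-49.

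Among unbound genes the highest ranked signals were at mrpl-55 (96.2, described above), mrpl-45 (71.6, summit at −348 bp), mrps-7 (67.3, at −120 bp), mrpl-47 (60.7, at 7 bp) and mrpl-37 (53.9, at −691 bp). Both mrpl-45 and mrps-7 exceeded the signal of 66.5 at the bound gene mrpl-49. Their scores were 121 for mrpl-45 and 701 for mrps-7, against 887 for mrpl-49, so signal and IDR score did not give the same order. At mrps-7 the strongest ranked signals of the replicates were 41.6 in replicate 1 and 22.7 in replicate 2. At mrpl-45 they were 43.1 in replicate 1 and 26.7 in replicate 2. As the plot of ranked signal by gene shows, the signals of bound and unbound genes of the set overlap.

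The small-subunit gene mrps-5, singled out after its values were seen because of its known role in lifespan, was at the other end. Its ranked summit had a signal of 2.47 in the pooled list, at −651 bp, which was the lowest of the 62 genes with one. Replicate 1 listed no summit there and replicate 2 listed one with a signal of 12.7. Its nearest series summit was at −97877 bp. At this threshold no binding at mrps-5 was detectable.

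In the replicates' ranked lists 45 genes of the set had a summit within 1000 bp in each. Across these genes the strongest signals in replicates 1 and 2 had a Spearman's rho of 0.46, against 0.45 across 9902 other genes and 0.73 across 79 cytosolic ribosomal genes. The genes of each set share their libraries, so these correlations are descriptions. The strongest summits of both replicates lay within 100 bp of each other at 15 of the 45 genes (33.3%), against 35.2% of the other genes and 57% of the cytosolic ribosomal ones. The share in the set was thus near that of the other genes. In the plot of replicate 2 against replicate 1, mrpl-23 and mrpl-15 stand highest in replicate 2, and mrpl-23 alone in replicate 1. The other bound genes, and mrpl-15 with them, lie at the upper edge of the set in replicate 1. In replicate 2 the bound genes other than mrpl-23 and mrpl-15 lie among higher unbound genes.

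**Figure D4:**
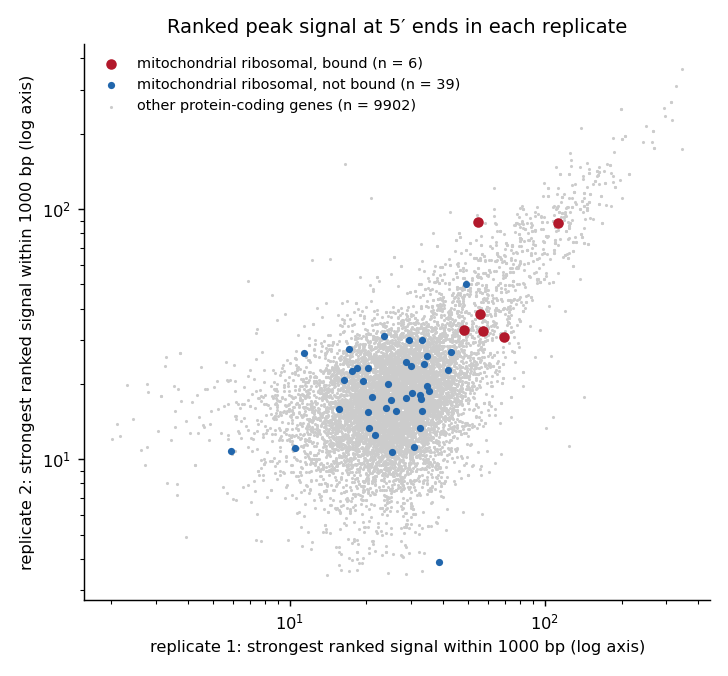
Signal of the strongest ranked summit within 1000 bp of the 5′ end in replicate 1 (x, log axis) and in replicate 2 (y, log axis), for genes with a summit in both. Red points are the 6 bound and blue points the 39 unbound mitochondrial ribosomal protein genes, grey points the 9902 other protein-coding genes. The bound genes span 48.4 to 112 in replicate 1 and 30.8 to 88.7 in replicate 2; at mrpl-49 the replicate 1 value of 55.8 belongs to a different summit, at −706 bp.

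The position of the ranked summits was also compared, and an upstream lean of the set could not be told from the other genes. Of the 62 strongest ranked summits of the set 38 were upstream of the 5′ end (61.3%, interval 48.1 to 73.4), with a median position of −190 bp. Among the other genes 50% were upstream, with a median of −1 bp, a share that the interval of the set holds. The large subunit had 67.6% upstream (interval 50.2 to 82) and the small subunit 52% (interval 31.3 to 72.2), with intervals that overlap. The large-subunit interval begins just above the 50% of the other genes but overlaps their own interval of 49.2 to 50.9.

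The distance limit decided several calls. Just outside it, mrps-21 had its nearest series summit at −1005 bp (signal 161), mrps-28 at −1047 bp (227), mrpl-36 at −1192 bp (143), mrpl-48 at −1630 bp (168) and mrps-23 at 1782 bp (98.4). The first 4 of these peaks were held by both replicates' thresholded lists, and that of mrps-23 by replicate 1 only. At mrps-28 the summit lay beside the snoRNA gene Y43F8C.22, in an intron of the gene Y43F8C.7. At mrps-21 it was nearer to F29B9.11 (−321 bp), at mrpl-48 nearer to vps-37 (−624 bp), which encodes a subunit of the ESCRT-I complex, and at mrps-23 nearer to prp-40 (−185 bp). At mrpl-36 no protein-coding 5′ end was closer, and its summit was intergenic. These 5 genes were the nearest beyond the limit, and the next was mrpl-40 at 1789 bp (signal 123), held by replicate 2 only.

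**Figure D5:**
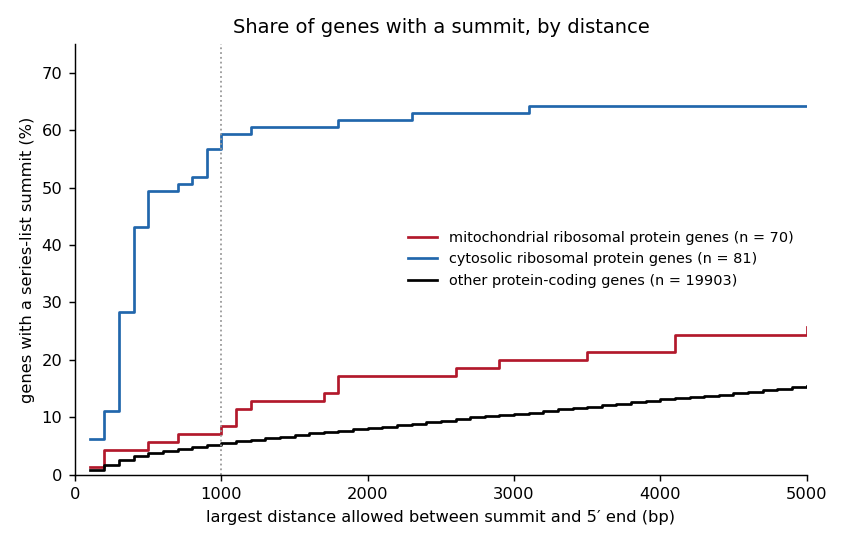
Share of genes (y axis, percent) with a summit of the series list at or below a given distance from the 5′ end (x axis, bp), for mitochondrial ribosomal (red), cytosolic ribosomal (blue) and other protein-coding genes (black). The dotted line marks 1000 bp. The red line is above the black one from 100 to 5000 bp, at 25.7% against 15.5% at 5000 bp, and far below the blue one.

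As the curve of share by distance shows, 12 of 70 genes had a summit within 2000 bp (17.1%, interval 9.18 to 28), against 8.12% of the other genes. Within 5000 bp there were 18 (25.7%, interval 16 to 37.6), against 15.5%. At these wider limits, unlike at 1000 bp, the interval of the set lay above the share of the other genes. No test was run, and neighbouring genes share summits. Higher shares than in the set were seen in the respiratory chain and ATP synthase genes, 23.4% within 2000 bp and 31.9% within 5000 bp. The import genes had 28.6% and 50%, and the list of mitochondrial gene expression a lower 7.41% at both limits. The median distance to the nearest summit was 16 kb for the set (quartiles 4.99 and 39.3 kb), against 25.4 kb for the other genes (9.44 and 53.6 kb) and 0.655 kb for the cytosolic ribosomal genes. The quartile ranges of the set and the other genes overlap. Medians were 12.1 kb for the respiratory chain and ATP synthase genes and 9.01 kb for the import genes. The list of mitochondrial gene expression had a median of 33 kb.

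Many genes of the set follow closely behind another gene. Runs of same-strand genes with gaps of at most 300 bp were built from the annotation as a stand-in for operons, since no operon map was used here. In these runs 24 of the 70 genes (34.3%) stood second or later, against 14.8% of the other genes. At their own 5′ end 2 of these 24 were bound (8.33%, interval 1.03 to 27), mrpl-23 and mrps-14, against 4.14% of later genes outside the set. Of the 46 genes that were first or alone 4 were bound (8.7%, interval 2.42 to 20.8), against 5.73% of such other genes.

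When each gene was instead given the 5′ end of the first gene of its run, 8 of 70 were bound (11.4%, interval 5.07 to 21.3), against 6.56% of the other genes. Of the 24 later genes 4 were bound in this way (16.7%, interval 4.74 to 37.4), against 11.3% of later genes outside the set. The gene mrpl-23, bound at its own 5′ end, was not bound in this way. The first gene of its run is fars-1, whose nearest summit lay at 1812 bp. The run of mrps-14 opens with nrde-2, a nuclear RNA interference gene, which had a summit at −913 bp with a signal of 399, rank 22 of 1815. This peak (chrII:10248454-10248653) was held by both replicates and was closer to the divergent gene atad-3 (−440 bp), which encodes a mitochondrial AAA ATPase. It lay at −6061 bp from mrps-14.

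The run of mrpl-48 opens with vps-37 (summit at −624 bp, signal 168) and that of mrps-21 with F29B9.11 (−321 bp, 161), the peaks named above. The run of mrps-30 opens with eif-3.E, a subunit of translation initiation factor 3, with a summit at −167 bp and a signal of 92.4 that passed in replicate 2 only. By this assignment 3 of 11 later genes of the small subunit had a bound head (27.3%, interval 6.02 to 61) and 1 of 13 of the large subunit (7.69%, interval 0.195 to 36), and both wide intervals hold the 11.3% of later genes outside the set. Whether these genes are transcribed from the first gene's promoter was not tested.

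Divergent neighbours were also common. A gene on the other strand started within 1000 bp upstream of 26 genes of the set (37.1%), against 17.7% of the other genes. Of these 26 only mrpl-49 was bound (3.85%, interval 0.0973 to 19.6), against 11.8% of other genes with such a neighbour and 68.8% of the 48 cytosolic ribosomal genes with one. The interval of the set holds the share of the other genes and lies below that of the cytosolic ribosomal genes. Across chromosomes the 70 genes were spread as 15 on I, 12 on II, 22 on III, 11 on IV, 10 on V and 0 on X. The bound genes were 2 on I, 2 on II, 1 on III, 0 on IV and 1 on V. No share of the other genes by chromosome was set beside these counts, so they do not show that any chromosome differs.

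Short words were counted on both strands of the summit windows and of promoter windows that run from 250 bases before to 50 bases after the 5′ end. There were 6 words, of which TAATTA and TAATGA hold the TAAT core of many homeodomain sites. In promoter windows TAATTA occurred at 15 of 70 genes (21.4%), against 15.5% of the other genes, and TAATGA at 10 (14.3%), against 20.1%. GCGCGC occurred at 6 genes (8.57%), against 3.57%. GGTTCG occurred at 2 (2.86%), against 3.86%, ACCACT at 5 (7.14%), against 8.96%, and CACGTG at 5 (7.14%), against 5.81%. No word thus marked most promoters of the set.

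In the 6 summit windows TAATTA occurred once, at mrps-14 (16.7%), against 1.6% of the 1809 other summits of the series list. GCGCGC occurred at mrpl-49 (16.7%), against 8.96% of the other summits. The other 4 words occurred in 0 of the 6 windows, against 2.71% of other summits for TAATGA, 14.4% for GGTTCG, 15.4% for ACCACT and 2.49% for CACGTG. Median GC content was 47% in the 6 windows, with a range of 27.7 to 54.5, against 50.5% at the other summits. In promoter windows it was 32.3% for the set and 34.3% for the other genes.

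The word TTTCAG, the form of a nematode splice acceptor, was counted on the gene's strand in the 20 bases before the 5′ end. It occurred at 26 of 70 genes of the set (37.1%), against 14.7% of the other genes. Among genes first or alone in their run it occurred at 21 of 46 (45.7%), against 14.7% of such other genes. Among later genes it occurred at 5 of 24 (20.8%), against 14.4%. Of the 6 bound genes only mrpl-32 had it. A match describes the sequence before the annotated 5′ end and does not show that a transcript is spliced there.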

How the data were processed

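The data were ChIP-seq peak lists of 2 biological replicates, deposited on ce11 per the labels. Per the deposited descriptions, lists were derived from each replicate alone and from both together. Which aligner and peak caller were used, the depth of the libraries and how a control entered peak calling is not given in the sources used here; the labels name a possible control experiment, not analysed here. The signal is the authors' peak value, with scaling not stated. The score is the authors' rescaled IDR, per the column layout; deposited thresholded lists begin at 830 or 831.

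Summits were the peak start plus the deposited offset, with 1 added to give positions counted from 1. Distances were taken to 5′ ends of Ensembl release 115 genes. Of 19973 genes, 99.7% began with ATG in the RefSeq genome at the annotated coding start, and 0 peaks ran past a chromosome end. Intervals are exact (Clopper-Pearson, 95%) and cover the sampling of genes only. Python 3.11.15, numpy 2.4.6, scipy 1.17.1 and matplotlib 3.10.9 were used, and the distance and run counts were tested on simulated data.

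The genes named were those bound in any list, the 5 unbound genes with the nearest summits, the 5 with the highest ranked signals, the 3 strongest of each comparison list and genes sharing a summit; mrps-5, mrps-30, mrpl-40 and the 8 genes without a ranked summit were added after their values were seen. Members, lists and words were chosen with earlier results of these data known. Of the list of other genes of mitochondrial gene expression, 9 symbols were not matched and not analysed here. Nothing says whether the replicates came from separate cultures. Alternatives were the list, the distance, the replicate, the gene assignment, the peaks at small RNA genes and the signal limit.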

Additional observations from a re-analysis of the deposited data

How the results depend on the processing

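The difference in share bound was 3.08 percentage points, mitochondrial ribosomal minus other protein-coding genes, and it changed sign under 4 of the 12 alternatives chosen at the start. It was −0.58 to −0.25 with 1 replicate left out, −0.72 with peaks that overlapped both replicates' lists and −0.04 with the upper 50% of peaks by signal. The share of the set was 2.86% without replicate 1 and without replicate 2, 1.43% with peaks of both replicates and 2.86% with the upper 50%. The large-subunit share was 2.44% with peaks of both replicates, and the small-subunit share was 0% without replicate 1, without replicate 2, with peaks of both replicates and with the upper 50%.

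The share of the other genes moved past its narrow interval under all 12. It was 2.2% within 250 bp, 3.73% within 500 bp, 8.12% within 2000 bp, 5.12% in the conservative list, 3.11 to 3.44% with 1 replicate left out and 2.15% with peaks of both. It was 4.61% without peaks at small RNA genes, 4.11% with the nearest gene only, 6.02% with any transcript's 5′ end, 5.93% by peak overlap and 2.89% with the upper 50%. The share at the first gene of a run stayed within its interval under its 5 alternatives. An added alternative, chosen after seeing the data, that took summits without the added base moved no share past its interval.

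The calls held in 9 of 12 alternatives for mrpl-23, in 8 for mrpl-15, mrpl-28, mrpl-32 and mrps-14, and in 7 for mrpl-49. Among these alternatives the limit of 2000 bp, any transcript's 5′ end and peak overlap could not lose a call made at 1000 bp. Their outcome for bound genes was thus fixed in advance and adds nothing to the stability of a call. The gene mrpl-55, not bound in the series list, was called bound in 1 of the 12, the conservative list. A limit of 2000 bp added mrpl-36, mrpl-40, mrpl-48, mrps-21, mrps-23 and mrps-28. The cause of these changes was not tested. No paired analysis was possible because there is 1 group. Read depth is unknown, so a gene without a peak was not detectably bound in these lists, not shown to be unbound.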
